A study of Mus musculus with 32 samples.

Results

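Sca-1, the surface protein whose antibody defines the stem and progenitor gate in mice, is encoded by Ly6a in a cluster of Ly6 genes on chromosome 15. Accessibility was examined at Ly6a and 5 neighbours of the cluster, Ly6e, Ly6c1, Ly6c2, Ly6d and Ly6k. Peaks were assigned to a member where its gene model was the nearest protein-coding one within 50 kb. Of 1054860 peaks in the 16 lists, 196 belonged to a member, and they fell into 24 regions. Ly6e held 162 of these peaks in 17 regions, Ly6c2 held 21 in 5 regions, Ly6d held 11 in 1 region and Ly6a held 2 in 1 region. Ly6c1 and Ly6k had none.

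The assay was ATAC-seq, in which a transposase cuts open chromatin, applied to stem and progenitor cells (HSPCs; Lin- cKit+ Sca1+) sorted from the bone marrow of transplanted mice. All groups had received wild-type CD45.1+/2+ marrow, from which the sorted cells came, mixed with CD45.1 competitor marrow, in lethally irradiated C57BL/6J (CD45.2) hosts. In AF9-experienced mice the competitor was homozygous for hMLL-AF9, a doxycycline-inducible leukaemia fusion, and for rtTA, the doxycycline-dependent activator. In naive mice it carried homozygous rtTA without hMLL-AF9. The groups were AF9-experienced LPS (5 lists), naive LPS (3), AF9-experienced PBS (4) and naive PBS (4), all after 5 weeks of induction and 4 weeks of withdrawal. Marrow was taken 24 hours after injection of LPS, a bacterial endotoxin, or of PBS, its vehicle. Ages, the promoter that drives rtTA and whether marrow of several mice was pooled are not given in the sources used here. The sorted cells are thus wild type, and the fusion acted in other cells of the same host.

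Ly6 genes encode small GPI-anchored proteins of the cell surface. Sca-1 is raised by type I and type II interferon through STAT factors, and inflammation therefore brings more Sca-1 protein to progenitors. Ly6e is itself interferon-induced, Ly6c1 and Ly6c2 encode the Ly6C antigen of inflammatory monocytes, Ly6d marks B-lineage-specified lymphoid progenitors, and Ly6k is a germ cell gene of the testis. The cells had been sorted on Sca-1 protein, so the gate itself fixes part of what the Ly6a locus can show.

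Lists held 19448 to 88816 peaks. The shortest were naive PBS 1 (19448) and AF9-experienced PBS 1 (25685), followed by naive LPS 3 (39464). Strength was therefore compared as a percentile rank by -log10 p among the strongest peaks of lists cut to 1 length. The top peak has rank 100, and a region with none of the kept peaks has 0. In bulk libraries a rank cannot tell fewer open cells from less accessibility per cell. This was done over all 16 lists (19100 peaks each) and over 14 lists without both shortest (38762 each). In the 14 lists, median fold enrichment over background was 4.49 to 9.74 in the LPS lists and 10.9 to 16.8 in the PBS lists, so it moved with LPS without overlap. Peaks on chromosome Y also set lists apart. The naive LPS lists had 2 each, AF9-experienced LPS 1 and 2 had 3 and 2, and every other list had 0 or 1. In the 16 lists, all 5 sort markers and all 5 stem cell factors looked up had a peak. Their strongest ranks summed to 240 to 276 and 286 to 328 in AF9-experienced LPS lists, 224 to 282 and 286 to 306 in naive LPS, 280 to 306 and 272 to 316 in AF9-experienced PBS, and 270 to 285 and 268 to 289 in naive PBS. Of 12 markers of mature lineages, 5 had a peak, and Cd4, Cd8a, Ncr1, Ly6g and S100a8 were among those with none. The lineage sum was 148 to 190 in AF9-experienced LPS lists, 149 to 167 in naive LPS, 110 to 141 in AF9-experienced PBS and 105 to 150 in naive PBS. Endothelial cells also express Ly6a, Ly6e and Ly6c1. The sum over the endothelial genes Cdh5, Kdr and Emcn was 17.4 to 86.1, 29.5 to 38.7, 10.2 to 35.2 and 24.5 to 44.1 in the same order of groups, and the part of other cell types in the results was not tested.

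Sequence was at hand for the promoters of Ly6c2 and Ly6c1, from RefSeq on GRCm38.p6, and they are shown because Ly6c2 carried a peak there and Ly6c1 did not. Each line reads 5′ to 3′ from 250 bases before to 50 after the listed start, and the capitals mark GAGGAAGT, a site of the PU.1 (ETS) type, and TATAAA, the TATA box. All lie on the minus strand, Ly6c2 at chr15:75111922-75112221, Ly6c1 start 1 at chr15:75048788-75049087 and Ly6c1 start 2 at chr15:75048614-75048913.
Ly6c2: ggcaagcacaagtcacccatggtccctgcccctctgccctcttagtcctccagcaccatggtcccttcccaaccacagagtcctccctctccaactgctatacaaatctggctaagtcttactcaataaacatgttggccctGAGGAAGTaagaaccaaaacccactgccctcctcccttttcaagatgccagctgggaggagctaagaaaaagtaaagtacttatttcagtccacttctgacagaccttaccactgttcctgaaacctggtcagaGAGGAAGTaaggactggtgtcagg
Ly6c1 start 1: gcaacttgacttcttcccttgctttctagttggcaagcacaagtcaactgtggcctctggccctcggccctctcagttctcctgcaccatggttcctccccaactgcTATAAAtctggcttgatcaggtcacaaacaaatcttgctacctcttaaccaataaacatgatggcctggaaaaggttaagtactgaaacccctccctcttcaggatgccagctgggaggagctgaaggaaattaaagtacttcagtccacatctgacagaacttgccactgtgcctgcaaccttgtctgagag
Ly6c1 start 2: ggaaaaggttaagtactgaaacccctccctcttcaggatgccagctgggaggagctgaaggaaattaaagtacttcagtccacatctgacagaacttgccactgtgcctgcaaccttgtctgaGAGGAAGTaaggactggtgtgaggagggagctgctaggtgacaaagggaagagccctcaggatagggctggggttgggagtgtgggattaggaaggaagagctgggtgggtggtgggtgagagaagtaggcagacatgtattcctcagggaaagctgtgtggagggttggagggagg
The search covered both strands for TATAAA, TTCNNNGAA (STAT), the NF-kB site, the ISRE of interferon-induced genes, TGACTCA (AP-1), GAGGAAGT and CGGAAG (ETS core). GAGGAAGT occurred at positions 143 and 277 of the Ly6c2 window, and 3.20% of 32851 promoters of that length hold it at least once. It also began at position 124 in the window of Ly6c1 start 2, so the gene without a peak holds it as well. TATAAA began at position 108 in the window of Ly6c1 start 1 and is in 13.6% of promoters. No other motif searched for was in these windows. The second listed start of Ly6c2 gives an overlapping window with the same GAGGAAGT sites. The Ly6c2 window matched that of Ly6c1 start 1 at 208 of 266 aligned bases (78.2%). It matched the window of Ly6a2, a gene of the same cluster, at 290 of 295 (98.3%), so reads at the Ly6c2 start could belong to either copy, and values there are uncertain.

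No list had a peak over Ly6a itself. The gene model (chr15:74994877-74998031) lies inside an interval of 121.89 kb, chr15:74989822-75111711, in which none of the 16 lists held a peak and which also contains Ly6c1 (chr15:75044018-75048920). The peak numbers given by the caller ran on across the interval without a break in 16 of 16 lists. Intervals at least as long made up 2.14% of the 146694 peak-free intervals of the autosomes. Ly6k (chr15:74796874-74799968) lay in another, of 81.392 kb (chr15:74769735-74851126; 3.37% were as long). Absence from the lists was not itself rare, since 14.1% of 20665 protein-coding genes had no linked peak and 19.5% of gene models had no peak over them. Filters on reads that map to several places are not stated, and the part of the cluster's near-identical copies in these gaps was not tested. An effect of LPS on accessibility at the body of Ly6a could therefore not be read from these lists.

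**Figure D1:**
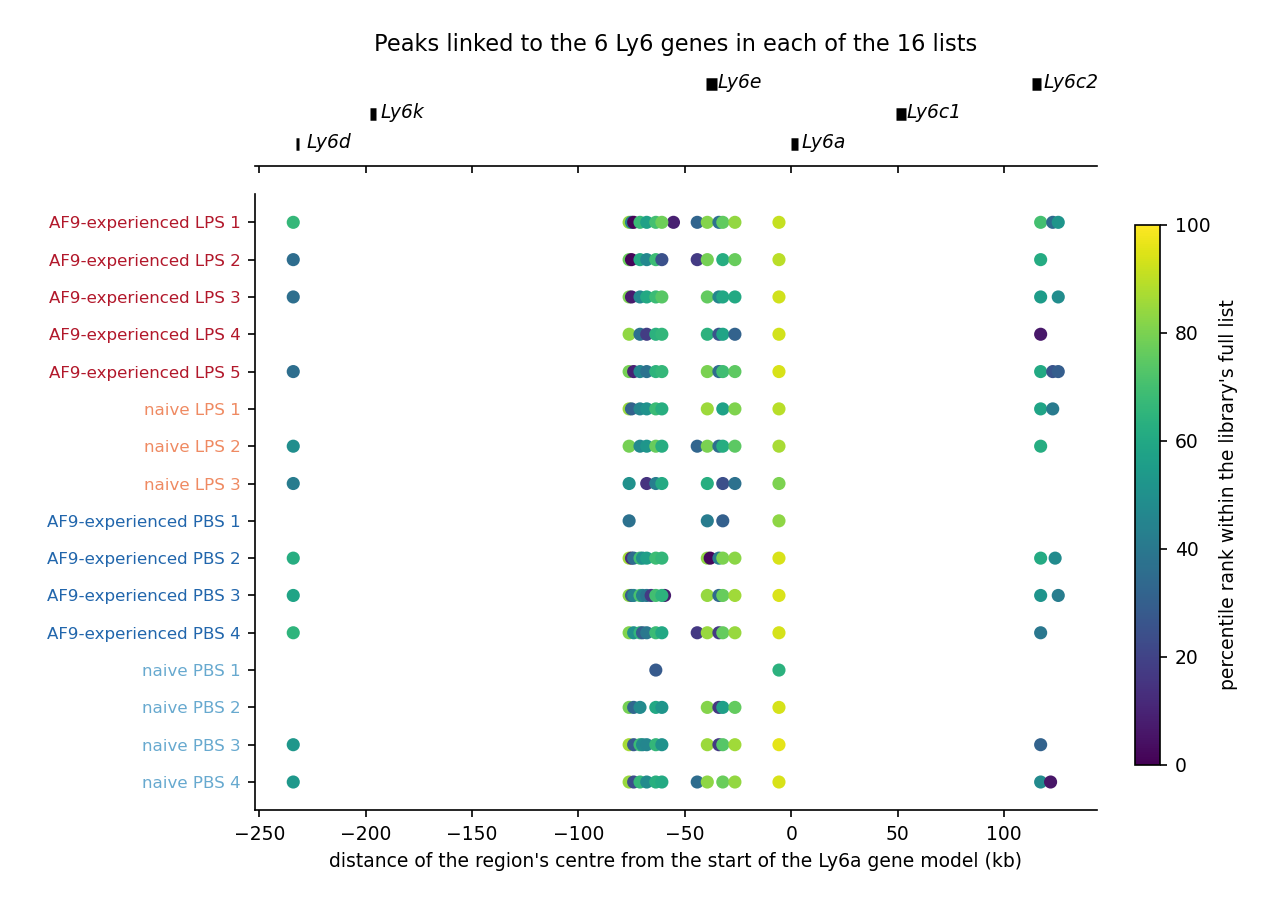
Peaks in the 24 regions linked to Ly6 genes. The x axis gives the distance of each region's centre from the start of the Ly6a gene model in kb, each row is 1 of the 16 lists, colour is the percentile rank within the full list, and black bars are the gene models. The region just left of Ly6a is filled in all 16 lists, while no point lies over Ly6a, Ly6c1 or Ly6k.

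The one region linked to Ly6a closed this gap on its lower-coordinate side (chr15:74988334-74989821, 1488 bp) and was the strongest of the tested regions linked to the 6 genes. It lay between Ly6i and Ly6a, 4.90 kb from the first and 5.056 kb from the second, so its link changed with the exact peak edge. Of its 18 peaks, those in AF9-experienced LPS 2 and AF9-experienced PBS 1 were nearest to Ly6a, and the other 16 were nearest to Ly6i, a further Ly6 family member. The region had a peak in all 16 lists, at a mean percentile of 89.3 in full lists. The annotation used gives no strand, so the region is placed by coordinates only.

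In the 16 equal-length lists the region ranked at 60.9, 62.9, 77.3, 77.9 and 79.5 in AF9-experienced LPS lists. It ranked at 57.4, 56.8 and 60.1 in naive LPS lists. Among PBS lists it stood at 77.5, 71.6, 73.2 and 71.9 in AF9-experienced mice and at 63.8, 78.3, 82.3 and 75.2 in naive mice. The naive LPS lists lay below every PBS list, and the AF9-experienced LPS lists split into a low pair and a high trio. The LPS minus PBS difference was -1.88 percentile points in AF9-experienced mice (SE 4.45; limma adjusted p = 0.870) and -16.8 in naive mice (SE 5.06; adjusted p = 0.0747). Neither passed the threshold of 0.05, adjusted over all 23554 regions tested.

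In the 14 longer lists, where the shortest PBS lists are left out, the same region was called lower after LPS in naive mice only, though the backgrounds were not shown to differ. AF9-experienced LPS lists ranked it at 80.7, 81.7, 88.8, 89.1 and 89.9, against 86.0, 86.8 and 86.2 in AF9-experienced PBS lists. These groups overlapped, and the difference was -0.28 (SE 2.02; limma adjusted p = 0.952, over 46997 regions). The region ranked at 79.0, 78.7 and 80.4 in naive LPS lists, against 89.3, 91.3 and 87.8 in naive PBS lists. Means were 79.4 ± 0.882 after LPS and 89.4 ± 1.74 after PBS (SD, n = 3 each), without overlap, and the difference was -10.1 (SE 2.26; adjusted p = 0.00872). The change after LPS differed between backgrounds by 9.80 (SE 3.03; unadjusted p = 0.00415), but this interaction did not pass over all regions (adjusted p = 1.0). After LPS, every AF9-experienced list ranked above every naive list, by 6.68 on average (SE 2.02; adjusted p = 0.415). After PBS, every AF9-experienced list ranked below every naive list, by a difference of -3.12 (SE 2.26; adjusted p = 1.0).

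The lists in which this region ranked lowest were those with 2 or more chromosome Y peaks, a cut chosen after seeing the data. These 5 lists, all naive LPS lists and AF9-experienced LPS 1 and 2, ranked the region at 56.8 to 62.9 in the 16 lists, below each of the 11 others. Of those others, naive PBS 1, with no Y peak, was closest at 63.8, and naive PBS 3, with 1 Y peak, was highest at 82.3. The other AF9-experienced LPS lists, with no Y peak, stood at 77.3 to 79.5. Of all tested regions, 0.590% placed those 5 lists below all others in the 16 lists and 1.12% in the 14 lists. As the cut followed a look at the data, these shares are description and do not test the split. In alternatives added after seeing the data, the LPS difference in the 14 lists was 2.94 in AF9-experienced mice without the Y-peak lists (adjusted p = 0.138). With Y peaks as covariate it was -2.04 in naive mice (adjusted p = 0.644). Every naive LPS list has Y peaks and no naive PBS list has more than 1, so in naive mice LPS and this split cannot be told apart. The call also depended on the ranking. By fold enrichment the difference was 8.88 in AF9-experienced mice (adjusted p = 0.0392) and -4.45 in naive mice (adjusted p = 0.378). With median fold as covariate the naive difference was -15.0 (adjusted p = 0.0520). Median fold did not overlap between LPS and PBS lists, so that fit separates it poorly from LPS.

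**Figure D2:**
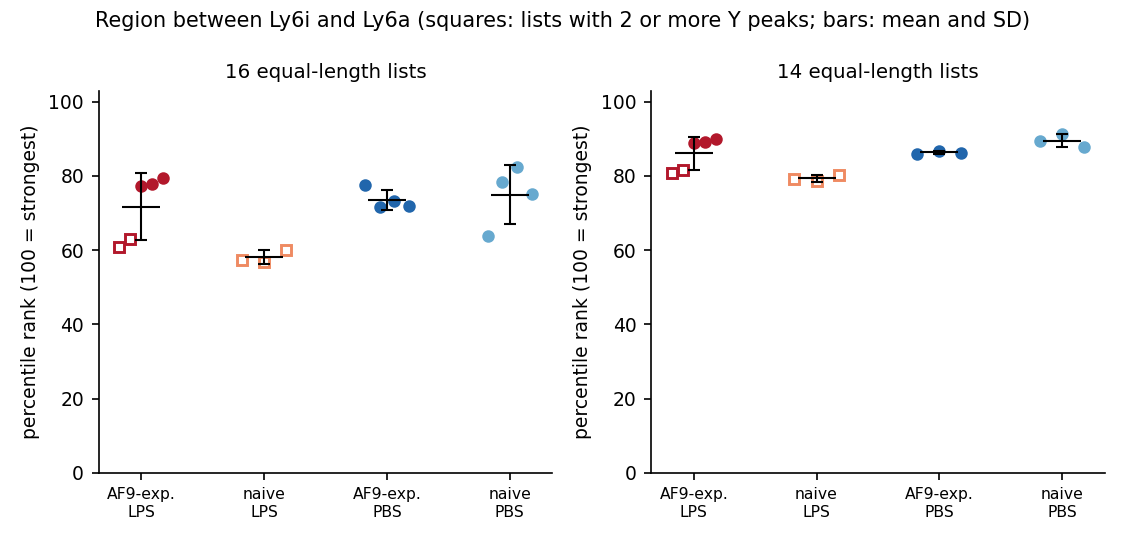
Percentile rank (y axis, 100 is the strongest peak) of the region between Ly6i and Ly6a by group, in the 16 and the 14 equal-length lists. Points are single lists, open squares those with 2 or more Y peaks, and bars give the mean and SD. All squares lie between 56.8 and 62.9 in the left panel, below every filled point.

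The regions elsewhere whose ranks ran most like it over the 16 lists lay 26.7 kb from 1700056E22Rik (Pearson r = 0.889), at Rgs10 (r = 0.889), a regulator of G-protein signalling, and at Ppard (r = 0.887), a nuclear receptor. These were the highest among regions linked to other genes, of 23553 compared, and all share the same lists.

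Ly6c2 had its main region over its own start, chr15:75111712-75112350, which contains the whole promoter window printed above. It was found in all 5 AF9-experienced LPS full lists, 2 of 3 naive LPS, 3 of 4 AF9-experienced PBS and 2 of 4 naive PBS lists. Among the 38762 strongest peaks of the 14 lists it ranked at 34.4, 31.6, 29.3, 0 and 33.6 in AF9-experienced LPS, against 12.2, 0 and 0 in AF9-experienced PBS. In naive mice it ranked at 18.8, 37.6 and 0 after LPS, against 0 in all 3 PBS lists. Ranks were thus higher in most LPS lists, but AF9-experienced LPS 4 and naive LPS 3 were at 0, so the groups overlapped.

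The difference at the Ly6c2 start was 21.7 in AF9-experienced mice (SE 9.24; limma adjusted p = 0.147) and 18.8 in naive mice (SE 10.3; adjusted p = 0.279), and neither passed. With lists weighted by their quality both did, at 22.1 (adjusted p = 0.0413) and 26.9 (adjusted p = 0.0463). Without AF9-experienced LPS 4 the AF9-experienced difference was 28.1 (adjusted p = 0.0486). In the 13 longer lists without naive LPS 3 the differences were 16.5 in AF9-experienced mice (adjusted p = 0.384) and 39.2 in naive mice (adjusted p = 0.118), so the order of the backgrounds turned. Without naive LPS 2 the naive difference was 9.38 (adjusted p = 0.649). With Y peaks as covariate it was 6.78 (adjusted p = 0.8293), but in naive mice this covariate cannot be told apart from LPS. The remaining Ly6c2 regions were weak and rare. One 5.516 kb beyond the gene (chr15:75117582-75117832) was in 2 of 5 AF9-experienced LPS and 1 of 3 naive LPS lists and in no PBS list. Another at 8.115 kb (chr15:75120181-75120418) was in 3 AF9-experienced LPS lists and 1 AF9-experienced PBS list. In the 13 lists the LPS difference at 5.516 kb was 5.24 in AF9-experienced mice and 12.6 in naive mice. At 8.115 kb it was 15.6 in AF9-experienced mice, and no naive list had a peak there. Neither region was called by limma. Those at 4.538 and 6.612 kb were in 1 list each. In full lists of unequal length such presence shows no change in itself. Summed ranks of the monocyte genes Csf1r, Lyz2 and Adgre1 in the 16 lists were 49.6 to 94.6 in AF9-experienced LPS, 58.0 to 82.5 in naive LPS, 65.5 to 99.3 in AF9-experienced PBS and 89.6 to 97.4 in naive PBS. In the 14 lists these genes went opposite ways. Adgre1 regions were called higher after LPS (1 in AF9-experienced and 2 in naive mice) and a Csf1r region lower in each background, while Itgam, a myeloid integrin, had regions called higher in both. Their part in the Ly6c2 ranks was not tested.

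Ly6e was the most accessible member after the Ly6i-Ly6a region, with 1 to 15 linked peaks in every list and regions from 35.9 kb on its lower-coordinate side to 7.92 kb on the other. Its gene model is chr15:74955025-74959904. The region over its lower-coordinate end (chr15:74954418-74956390) ranked in the 14 lists at 59.7, 62.8, 62.2, 44.6 and 66.8 in AF9-experienced LPS and 71.7, 67.1 and 62.9 in naive LPS. It ranked at 61.7, 64.5 and 66.9 in AF9-experienced PBS and 70.4, 69.6 and 66.7 in naive PBS. LPS and PBS lists overlapped in both backgrounds, and AF9-experienced LPS 4 was the lowest. The LPS difference at this end was -5.13 in AF9-experienced mice (SE 4.57; limma adjusted p = 0.511) and -1.69 in naive mice (SE 5.11; adjusted p = 0.886).

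On the far lower-coordinate side of Ly6e, a pair of neighbouring regions ranked higher in most LPS lists. At 20.5 kb (chr15:74933570-74934531), ranks were 51.9, 0, 59.6, 47.5 and 44.2 in AF9-experienced LPS, against 24.4, 19.8 and 14.8 in AF9-experienced PBS. Naive LPS lists stood at 26.9, 38.2 and 61.0, against 23.5, 0.276 and 22.5 in naive PBS lists. Apart from AF9-experienced LPS 2, with no peak among those kept, every LPS list was above every PBS list. The differences were 21.0 in AF9-experienced mice (SE 11.6; adjusted p = 0.272) and 26.6 in naive mice (SE 13.01; adjusted p = 0.216) and did not pass. Without AF9-experienced LPS 2 the first was 31.1 (adjusted p = 0.0493), and among lists with fewer than 2 Y peaks it was 30.8 (adjusted p = 0.0293). In the 13 lists without naive LPS 3, which were longer, the differences were 9.38 (adjusted p = 0.583) in AF9-experienced mice and 11.1 (adjusted p = 0.658) in naive mice. With median fold as covariate they turned to -16.1 in AF9-experienced mice (adjusted p = 0.776) and -1.99 in naive mice (adjusted p = 0.973). These signs decide nothing, because median fold did not overlap between LPS and PBS lists and separates poorly from LPS.

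At 23.0 kb (chr15:74930427-74931997) ranks were 34.4, 44.2, 50.2, 44.6 and 41.1 in AF9-experienced LPS, against 29.6, 32.1 and 31.8 in AF9-experienced PBS. Naive LPS lists stood at 38.2, 62.2 and 42.5, against 36.0, 31.1 and 26.9 in naive PBS lists. LPS and PBS lists did not overlap within either background. Of the 11 regions tested in the 14 lists, 5 had no such overlap in naive mice and 1 in AF9-experienced mice. The share over all regions was not worked out, so lack of overlap, here and at the other regions, is description only. The differences of 11.7 in AF9-experienced mice (SE 7.56; adjusted p = 0.350) and 16.3 in naive mice (SE 8.46; adjusted p = 0.247) did not pass. A weak region at 27.9 kb (chr15:74926729-74927156) differed by 9.45 in AF9-experienced mice (SE 7.20; adjusted p = 0.435) and 13.4 in naive mice (SE 8.05; adjusted p = 0.325).

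Other Ly6e regions leaned the other way. At 31.0 kb (chr15:74923531-74924035) AF9-experienced LPS lists had ranks of 29.3, 30.3, 17.1, 2.12 and 9.68, against 31.7, 34.6 and 26.1 in AF9-experienced PBS. Naive LPS lists had 0, 13 and 0, against 16.1, 34.2 and 33.8 in naive PBS lists. AF9-experienced lists overlapped and naive lists did not. The differences were -13.1 in AF9-experienced mice (SE 8.62; adjusted p = 0.360) and -23.7 in naive mice (SE 9.63; adjusted p = 0.132). On the higher-coordinate side, the region at 2.39 kb (chr15:74962294-74963060) differed by -10.7 in AF9-experienced mice (SE 7.92; adjusted p = 0.423) and -17.3 in naive mice (SE 8.86; adjusted p = 0.243). The region at 7.92 kb (chr15:74967823-74968934) ranked at 64.5, 58.6, 38.0, 0 and 58.3 in AF9-experienced LPS, against 60.9, 68.3 and 66.9 in AF9-experienced PBS. Its difference was -21.5 (SE 10.6; adjusted p = 0.215). It was -33.3 among lists with fewer than 2 Y peaks (adjusted p = 0.0437), a value that includes the 0 of AF9-experienced LPS 4. In naive mice its difference was -14.2 (SE 11.8; adjusted p = 0.5004). The farthest region, at 35.9 kb (chr15:74918189-74919148), differed by 3.34 in AF9-experienced mice (SE 4.56; adjusted p = 0.682) and -7.55 in naive mice (SE 5.09; adjusted p = 0.388).

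**Figure D3:**
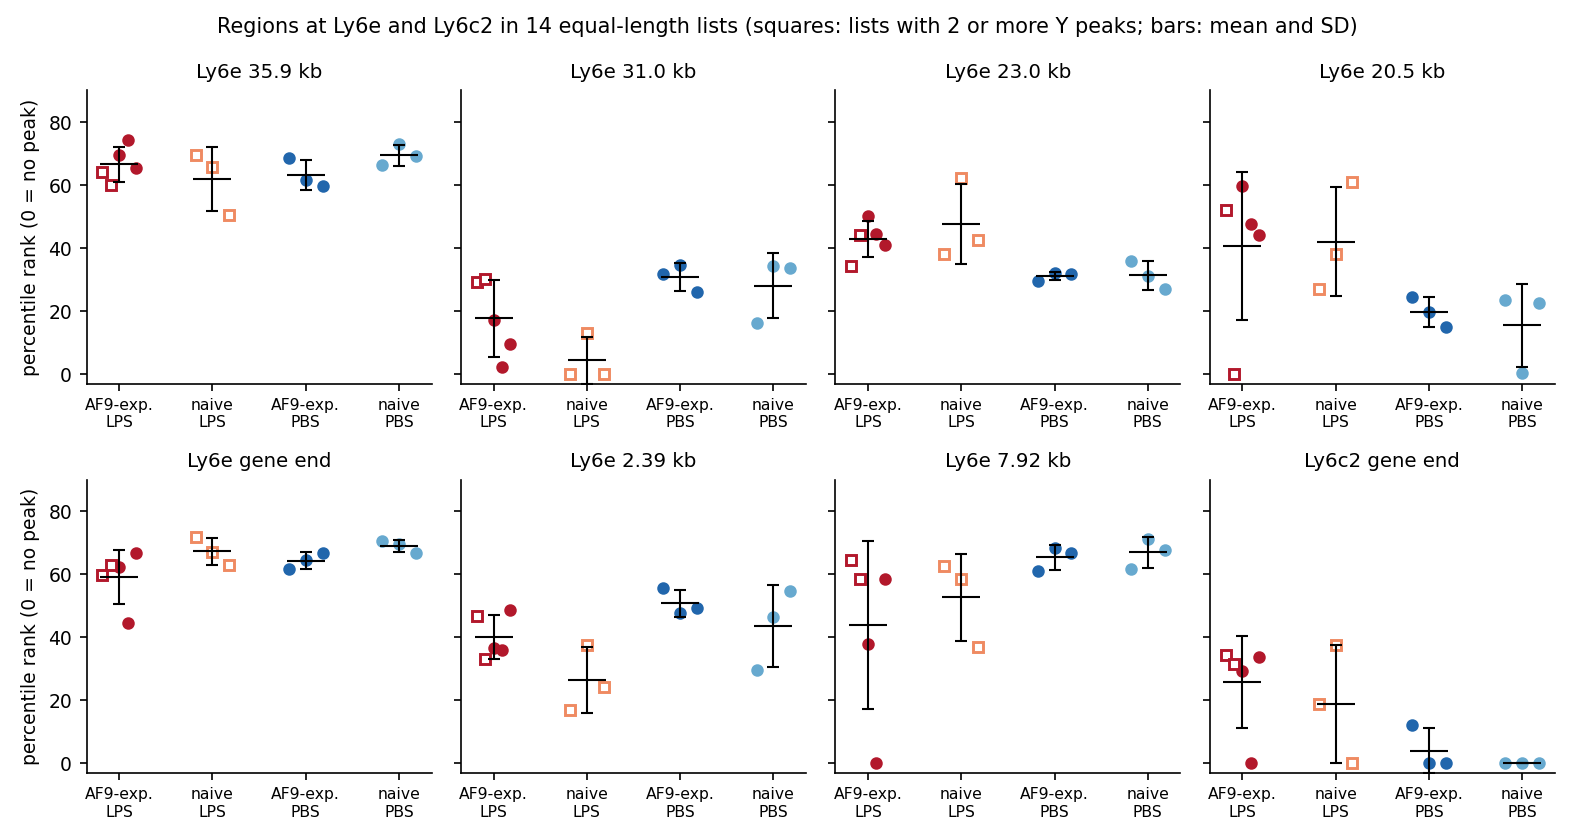
Percentile rank (y axis, 0 means no peak among the 38762 kept) of 7 Ly6e regions, named by their distance to the gene, and of the Ly6c2 start in the 14 equal-length lists. Points are single lists, open squares those with 2 or more Y peaks, and bars give the mean and SD. At 23.0 kb every LPS list lies above the PBS lists of its background, whereas at 31.0 kb the naive LPS lists lie below.

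The 9 Ly6e regions too weak to be tested in the 16 or the 14 lists were in 1 to 10 full lists. Some could be tested in the 13 lists, and none was called after LPS. Differences in AF9-experienced mice were -18.0 at 34.03 kb, -15.4 at 29.961 kb, 4.79 at 35.081 kb, 1.73 at 3.979 kb and 15.4 at 0.695 kb (limma adjusted p at least 0.1028). In naive mice they were -12.3, -10.3, 6.27, 8.47 and 11.6 at these distances in turn (limma adjusted p at least 0.43). One at 29.961 kb (chr15:74924860-74925064) was in 0 of 8 LPS lists, 3 of 4 AF9-experienced PBS and 1 of 4 naive PBS lists. One at 34.03 kb (chr15:74920602-74920995) was in 2 of 5 AF9-experienced LPS, 0 of 3 naive LPS and 3 of 4 lists of each PBS group. The region at 0.695 kb on the higher-coordinate side (chr15:74960599-74961126) was in 4 of 5 AF9-experienced LPS, 1 of 3 naive LPS, 3 of 4 AF9-experienced PBS and 2 of 4 naive PBS lists. The region at 3.979 kb was in 2 of 5, 1 of 3, 1 of 4 and 1 of 4 lists in the same order of groups. Of 4 regions found in 1 list each, that at 15.457 kb was in an AF9-experienced LPS list, and those at 25.937 kb, at 19.619 kb and inside the gene were in AF9-experienced PBS lists. At 35.081 kb the region was in 3 of 5 AF9-experienced LPS, 1 of 3 naive LPS, 2 of 4 AF9-experienced PBS and 0 of 4 naive PBS lists.

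Ly6d had a single region, 0.870 kb from its gene model (chr15:74760527-74761186), present in 4 of 5 AF9-experienced LPS, 2 of 3 naive LPS, 3 of 4 AF9-experienced PBS and 2 of 4 naive PBS full lists. In the 14 lists it ranked at 26.4, 0, 0, 0 and 0 in AF9-experienced LPS and 0, 16.6 and 41.6 in naive LPS. The PBS lists had 15.6, 6.78 and 25.6 in AF9-experienced mice and 0, 4.35 and 7.99 in naive mice. LPS and PBS lists overlapped in both backgrounds. The LPS difference was -10.7 in AF9-experienced mice (SE 8.71; adjusted p = 0.4659) and 15.3 in naive mice (SE 9.73; adjusted p = 0.357). The naive value was 4.19 without naive LPS 3 and turned to -3.10 in 13 lists of 59609 peaks that also leave that list out (adjusted p = 0.945).

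Set in order by mean rank over the 14 lists, the Ly6i-Ly6a region came first at 85.4 ± 4.38 (SD, n = 14) and was above the next in 14 of 14 lists. The Ly6e regions at 35.9 kb (65.5 ± 6.18), the gene end (64.1 ± 6.62) and 7.92 kb (55.3 ± 18.9) followed. The first of these exceeded the second in 6 of 14 lists and the second exceeded the third in 9, so these neighbours did not separate beyond their spread. Next came 2.39 kb (40.2 ± 11.5), 23.0 kb (38.9 ± 9.48), 20.5 kb (31.0 ± 19.9) and 31.0 kb (19.9 ± 13.2). This order pools groups that differ. The means at 2.39, 23.0 and 20.5 kb were 40.2, 42.9 and 40.6 in AF9-experienced LPS and 26.3, 47.6 and 42.0 in naive LPS, but 50.9, 31.2 and 19.7 in AF9-experienced PBS and 43.6, 31.3 and 15.4 in naive PBS. The Ly6c2 start (14.1 ± 15.9), the Ly6d region (10.4 ± 13.1) and the Ly6e region at 27.9 kb (6.54 ± 11.2) were lowest. Each had no peak among those kept in 6 or 7 of the 14 lists. In full lists, where weaker peaks count too, they had a peak in 12, 11 and 13 of 16 lists.

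Counted together, 11 of the 24 regions could be tested in the 14 lists, and limma called 0 after LPS in AF9-experienced mice, against 9.22% of all 46997 regions (4.89% higher and 4.33% lower); 1 had an unadjusted p under 0.05. In naive mice 1 was called, lower, against 8.95% of all regions (4.35% higher and 4.6% lower). In the 16 lists 6 regions could be tested and limma called 0 in each background, against 5.18% of all regions in AF9-experienced mice (3.44% higher and 1.74% lower) and 3.22% in naive mice (2% higher and 1.22% lower); 0 and 1 had an unadjusted p under 0.05. The median difference of the 11 regions was -0.28 in AF9-experienced mice, against -0.50 over all regions, and -1.69 in naive mice, against -0.72. Regions that passed the filter on 3 lists could pass through the group where they are high, and the other 13 are given above by the number of lists that hold them.

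**Figure D4:**
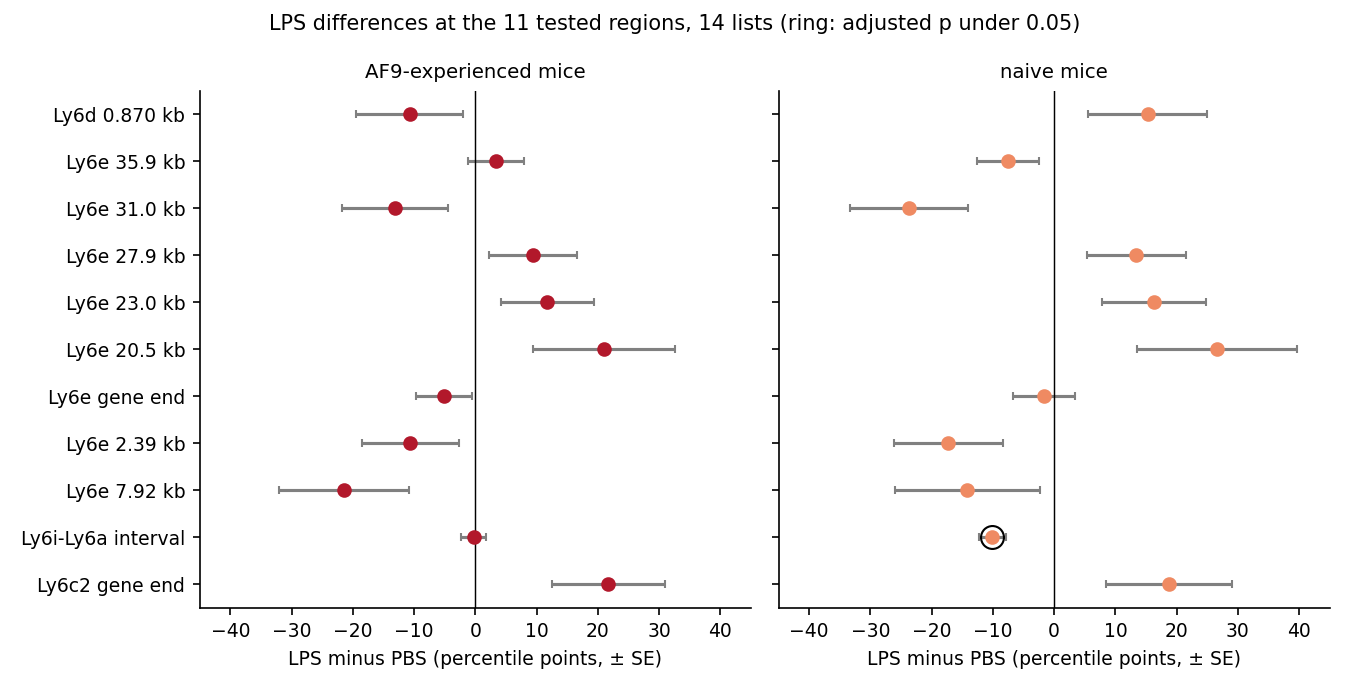
LPS minus PBS difference in percentile rank (x axis, ± SE) of the 11 tested Ly6 regions in the 14 lists, for AF9-experienced and naive mice. Regions run down the page in chromosome order, and the ring marks the only call, at -10.1 for the Ly6i-Ly6a region in naive mice.

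No tested Ly6 region passed between AF9-experienced and naive mice. In the 14 lists limma called 0 of 11 after LPS and 0 of 11 after PBS, where the share of all regions called was 0 in both; 1 and 0 had an unadjusted p under 0.05. In the 16 lists 0 of 6 were called in each, against 0.0127% of all regions after LPS and 0 after PBS. Differences ran from -14.1 to 13.9 after LPS and from -6.21 to 11.9 after PBS in the 14 lists. Standard errors were 2.02 to 13.01 points. The Ly6i-Ly6a difference of 6.68 after LPS did not pass (SE 2.02, limma adjusted p = 0.415). Differences well above their standard error could therefore go uncalled at this number of lists.

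Of 14 other genes of the cluster, 6 had tested regions in the 14 lists. Of their 8 regions, 0 were called by limma after LPS in AF9-experienced mice and 2, both lower, in naive mice, against 9.22% of all regions in AF9-experienced mice and 8.95% in naive mice (4.6% lower). In AF9-experienced mice 1 had an unadjusted p under 0.05. The naive calls were the region shared with Ly6i and one 17.3 kb from Ly6l, a further family member. The Ly6l region stood at 20.7 ± 29.7 in naive LPS and 61.1 ± 4.32 in naive PBS (SD, n = 3 each), a difference of -40.4 (SE 12.2; limma adjusted p = 0.0428). In AF9-experienced mice, regions with the smallest p lay near Ly6l (-27.4; adjusted p = 0.122) and Ly6h (-12.6; adjusted p = 0.482). In the 16 lists limma called 0 of 5 regions of these genes in each background; 0 in AF9-experienced and 2 in naive mice had an unadjusted p under 0.05. The median of the 8 was 0.18 in AF9-experienced mice, against -0.50 over all regions, and -0.73 in naive mice, against -0.72.

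The interferon pathway that acts on Sca-1 held regions that changed, at a share close to that of all regions. Of 50 regions at 11 genes of receptors, kinases and transcription factors, 4 rose and 1 fell after LPS in each background in the 14 lists, against 9.22% of all regions in AF9-experienced mice and 8.95% in naive mice. A region 19.4 kb from Ifnar2, a type I interferon receptor chain, stood at 64.5 ± 10.1 in AF9-experienced LPS (n = 5) and 0 in AF9-experienced PBS (n = 3). In naive mice it stood at 64.0 ± 3.97 after LPS and 11.5 ± 19.9 after PBS (SD, n = 3 each). It rose by 64.5 in AF9-experienced mice (adjusted p = 1.87e-04) and by 52.5 in naive mice (adjusted p = 0.00261). A region at Jak2, a receptor kinase, rose by 23.5 in AF9-experienced mice and by 16.2 in naive mice. Another, 9.49 kb from Jak2, rose by 38.8 in AF9-experienced mice and by 51.0 in naive mice (limma adjusted p at most 0.0273 for both regions). A region 42.2 kb from Irf1, an interferon-induced transcription factor, rose by 31.9 in AF9-experienced mice (adjusted p = 0.0359) and by 52.9 in naive mice (adjusted p = 0.00387). A region inside Jak1 was in no LPS list among the peaks kept and fell by 27.96 in AF9-experienced mice (adjusted p = 0.0201) and by 36.5 in naive mice (adjusted p = 0.00860). The Irf1 region and the Jak2 region at 9.49 kb were likewise in no PBS list among the peaks kept. These regions passed the filter on 3 lists only through the groups where they are high, so their p-values carry that limit. In the 16 lists of AF9-experienced mice 2 of 30 regions were called higher, at Jak2 (40.5; adjusted p = 0.00398) and near Ifnar2 (29.3; adjusted p = 0.0266), against 3.44% of all regions called higher and 5.18% in either direction. In naive mice limma called 0 of 30, against 3.22% of all regions; 3 had an unadjusted p under 0.05, and the region near Ifnar2 differed by 26.9 (adjusted p = 0.0986).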

How the data were processed

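One narrowPeak list per biological replicate was used, each standing for 2 technical libraries in the labels, with no files identical. Per the submitters' processing notes, the tools were BWA, MACS3, Picard, FastQC and Trim Galore (no versions given) and the build was GRCm38; read filters are not given in the sources used here. The labels name both Omni-ATAC and a Chromium chemistry. The deposited columns hold the authors' fold enrichment of a peak (a ratio over local background), its -log10 p and its -log10 q. They were used only within a list. Total read depth is unknown, so no counting interval is given.

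Lists were assigned to groups by the group and replicate in their names. Each was cut to equal length on autosomes, overlapping peaks were merged, and the strongest peak's percentile rank was the value. Regions found in 3 or more lists entered limma 3.58.1 (R 4.3.3; trend and robust empirical Bayes), 1 mean per group. A call needed a Benjamini-Hochberg adjusted p below 0.05 in its contrast, and p-values reflect the spread between samples labelled as biological replicates. Differences are in ranks, which can move when other regions do. The fit was tested on simulated data. Peaks were linked with bedtools 2.31.1 to GRCm38.p6 RefSeq gene models, which carry no strand. The genes named were all 6 members, the called regions of the 2 gene lists (or those with the smallest p), and the 3 regions most like the Ly6a-linked one. Members, lists and rules were chosen with earlier results of these data known. Alternatives were other rankings, lengths, overlaps and filters, presence, covariates, library weights, a replicate block, leaving out lists, and gene models of any kind. Those on Y peaks were chosen after seeing the data. Results at some genes of the lists are not reported here.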

Additional observations from a re-analysis of the deposited data

Results flagged for a closer look

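Within groups of 4 or more lists, 6 of 26 sets of ranks held a list far from the others by Dixon's test at the 95% level. For normal values chance alone flags about 1 in 20. Many of these ranks are 0 and the 16 and 14 lists share peaks, so an excess cannot be read from the count. At the Ly6c2 start, AF9-experienced LPS 4 had 0 in the 14 lists, against 29.3 to 34.4 in the other AF9-experienced LPS lists. At the Ly6d region, AF9-experienced LPS 1 had 26.4, against 0 in the others. For Ly6e at 2.39 kb, naive PBS 4 had 8.32 in the 16 lists, against 0 in the others. For Ly6e at 27.9 kb, AF9-experienced LPS 3 had 37.7 in the 14 lists, against 0 to 6.55. For Ly6e at 20.5 kb, AF9-experienced LPS 3 had 17.9 in the 16 lists, against 0 to 2.41, and AF9-experienced LPS 2 had 0 in the 14 lists, against 44.2 to 59.6. The causes were not tested.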

How the results depend on the processing

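Counts of called Ly6 regions were small and moved with the processing. The share of all regions called is given only for the main processing of the 16 and the 14 lists. Counts in other settings therefore cannot be set against such a share. In naive mice the 14 lists gave 1 call. It became 0 by fold enrichment and as presence in full lists (the region has a peak in every list, so presence cannot differ). It also became 0 with median fold or with Y peaks as covariate. Median fold did not overlap between LPS and PBS lists, and Y peaks went with LPS in naive mice, so these covariate fits cannot decide. With library weights there were 2 calls, which added the Ly6c2 start. The 16 lists gave 0, but 1 with library weights and 1 when that AF9-experienced LPS group held its Y-peak lists alone; leaving out 1 list gave 0 to 1, the 1 being without naive PBS 1 (-20.5; adjusted p = 0.0183). In AF9-experienced mice the 14 lists gave 0 after LPS, but 4 by fold enrichment, 1 as presence in full lists, 2 with presence counted from a -log10 q of 5 up, 1 with library weights, 1 with Y peaks as covariate and 2 among lists with fewer than 2 Y peaks; leaving out 1 list gave 0 to 1. By fold enrichment the Ly6i-Ly6a difference there reversed to 8.88, against -0.28; the cause was not tested. The naive difference of this region kept its call when any 1 list was left out (adjusted p = 0.00466 to 0.0497) and in 13 lists (-6.88; adjusted p = 0.0207). Among differences called in neither setting, 56 of 747 changed sign in the 16 lists and 76 of 1373 in the 14 lists. Same-numbered libraries deviated together only weakly (correlation -0.215 to 0.231 in the 16 lists, above 0.1 in 3 of 21 pairs). The highest was between AF9-experienced PBS 1 and naive PBS 1, the shortest lists, and a shared batch was not tested. With the replicate block, the naive Ly6i-Ly6a difference was -8.80 in the 14 lists (limma adjusted p = 0.0270) and -16.0 in the 16 lists (limma adjusted p = 0.109). No call changed with that block. With gene models of any kind, 78 peaks in place of 196 were linked to a member, with 46 at Ly6e and 0 at Ly6a. Depth is unknown, and the equal lengths hide weak peaks.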
